A study of Mus musculus with 48 samples.

Results

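The step from circadian time 8 (CT8) to circadian time 12 (CT12) in mouse kidney was described from 16 of the 48 RNA-seq libraries of the series, 8 labelled CT12 and 8 labelled CT8. The rule that chose the libraries used their time label and no expression value. It was set with earlier results of these data known. They fall into 4 groups of 4 libraries: D-Ala CT12, Vehicle CT12, D-Ala CT8 and Vehicle CT8. D-Ala stands for d-alanine, the enantiomer of L-alanine, which proteins contain. All 16 libraries are labelled WT kidney, and the sources used here give no dose, route, vehicle, strain, sex, age or light schedule. The series text describes kidneys of different mice and an experiment performed 2 times. Each of the 2 tables of values contains 2 libraries per group. Taking each table for 1 run of the experiment is an inference.

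The circadian clock of mammalian cells is a transcriptional feedback loop. CLOCK (or NPAS2) and ARNTL, also called BMAL1, bind E-box DNA elements and activate the Per and Cry genes, whose proteins later block that activation. A second loop links Nr1d1 and Nr1d2, which repress Arntl through ROR elements, with the Ror genes, which activate through the same elements, and another runs through D-box factors such as Dbp and Nfil3. In kidney the tubular clock is known for daily rhythms of salt, water and solute handling. By convention circadian time counts from the start of the subjective day, so that CT8 lies late in the rest phase of a mouse and CT12 marks the start of its active phase.

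Values are FPKM, fragments scaled to gene length and library total, as the authors deposited them. Depth ran between 9962037 and 12021860 fragments per library at CT12 and between 10757077 and 12944443 at CT8. Libraries of a group correlated at 0.956 to 0.987 if they stood in 1 table and at 0.936 to 0.971 if not. The table was a term in every fit on both tables except 1 alternative that left it out. The kidney label was checked against proximal tubule markers, of which Kap, an androgen-regulated transcript of that segment, had a median of 46931 FPKM at CT12 and 43483 FPKM at CT8. Summed FPKM of 8 inner medulla markers stood apart in 6 libraries, against 25.1 to 60.2 in the other 10. These were D-Ala CT8 replicates 1, 2 and 4 (358, 267 and 125), D-Ala CT12 replicates 2 and 4 (191 and 147) and Vehicle CT12 replicate 1 (232). Summed FPKM of 7 adipose markers was 29 and 86.5 in D-Ala CT8 replicates 1 and 2, against 6.54 to 18.1 in the other 14. Mitochondrially encoded RNA took 42.7% ± 4.32 of all FPKM at CT12 and 39.2% ± 1.8 at CT8 in the first table, and 17.3% ± 1.61 at CT12 and 19.3% ± 3.3 at CT8 in the second (SD, n = 4 each). Over all 16 libraries the difference was 0.777 percentage points (exact permutation test within treatment and table, two-sided, p = 0.642).

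Between CT12 and CT8, 92 of 14922 genes tested passed the threshold, which is 0.617% of them. Of these, 34 genes (0.228%) rose at CT12 and 58 genes (0.389%) fell. Leaving out 1 library moved the number of calls between 28, without D-Ala CT12 replicate 3, and 176, without Vehicle CT12 replicate 1, with 11 to 49 higher and 17 to 134 lower. The test was limma on log2(FPKM + 1) with treatment and table as covariates, two-sided, with Benjamini-Hochberg adjustment at 0.05, and the log2 changes below are CT12 minus CT8 on that scale, which understates changes of low genes. The 34 that rose had a median log2 change of 0.51, with a range of 0.27 to 1.06, and the 58 that fell had a median of -0.35, with a range of -0.99 to -0.18. Over all genes tested the median was -0.06. At an unadjusted p under 0.05 there were 2481 genes (16.6%), of which 508 (3.4%) were higher and 1973 (13.2%) lower at CT12. At 1.5-fold or more stood 14 of the 34 and 6 of the 58.

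The balance of higher and lower calls depended on how libraries were scaled. Rescaling to TPM gave 26 higher (0.174%) and 130 lower genes (0.871%), and leaving mitochondrial genes out of the total gave 35 (0.235%) and 132 (0.885%). Quantile normalization gave 44 higher (0.295%) and 23 lower genes (0.154%), and centring each library on its median gave 41 (0.275%) and 12 (0.0804%). Under these 4 scalings 26, 31, 30 and 28 of the 34 higher genes kept their call, as did 58, 58, 21 and 11 of the 58 lower genes, and the sign of no called gene turned. Leaving out the libraries that stood apart lowered the number of calls. The D-Ala CT8 group kept replicate 3 alone without the inner medulla libraries, and no library of the first table without the adipose libraries. Without the 6 libraries high in inner medulla markers, 3 genes were higher (Per2 and Gm4956 among them) and 3 lower (Acmsd, Ddc and Ethe1), and without the 2 high in adipose markers 12 were higher and 34 lower, which included 11 of the 34 and 19 of the 58 genes called on all 16 libraries. In both runs the 34 and the 58 genes called on all 16 libraries all held their sign and an unadjusted p under 0.05. They were chosen on values that these runs reuse, so this is no separate test of them. In whole kidney, a lower level can come from fewer cells of a type or from less RNA per cell, and these cannot be told apart.

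In the negative limb of the clock, 3 repressor genes rose at CT12. Per2, at chr1:91415982-91459324 on the minus strand (GRCm38), had 14.2 to 27.8 FPKM at CT12, with a median of 21.4, against 7.82 to 12.1 FPKM at CT8, with a median of 9.49. Every CT12 library lay above every CT8 library, and the log2 change was 1.06 ± 0.08 (SE, limma adjusted p = 1.11e-05). Cry1, at chr10:85131700-85185064 on the minus strand, was low in all libraries, with 1.44 to 2.97 FPKM at CT12 (median 2.16) and 0.42 to 1.07 FPKM at CT8 (median 0.798). Its ranges did not overlap either, and it rose by 0.85 ± 0.10 on the log2 scale (SE, limma adjusted p = 0.0011). For Per1, at chr11:69095217-69109960 on the plus strand, the values were 14.2 to 21.4 FPKM at CT12 (median 17.5) and 5.37 to 16 FPKM at CT8 (median 8.55). The ranges met because 1 Vehicle CT8 library reached 16 FPKM. Per1 rose by 0.84 ± 0.15 (SE, limma adjusted p = 0.0244) but kept its call in 10 of the 16 runs that left out 1 library, with the highest adjusted p, 0.0664, without D-Ala CT12 replicate 3. The other 2 genes of these families did not pass the test: Per3 had a log2 change of 0.25 (adjusted p = 0.178) and Cry2 of 0.10 (adjusted p = 0.666).

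Promoter windows of 250 bases before to 50 bases after the RefSeq start site (GRCm38.p6) are shown for Per1 and Cry1, because both rose and both hold the E-box letters CACGTG, the element through which CLOCK and ARNTL act. Capitals mark the E-box, which begins 166 bases before the start site in Per1 and 60 bases before it in Cry1. The Per1 window, chr11:69098699-69098998 on the plus strand, is 1 of 2 that RefSeq lists for the gene. CACGTG was not found in the other.
Per1: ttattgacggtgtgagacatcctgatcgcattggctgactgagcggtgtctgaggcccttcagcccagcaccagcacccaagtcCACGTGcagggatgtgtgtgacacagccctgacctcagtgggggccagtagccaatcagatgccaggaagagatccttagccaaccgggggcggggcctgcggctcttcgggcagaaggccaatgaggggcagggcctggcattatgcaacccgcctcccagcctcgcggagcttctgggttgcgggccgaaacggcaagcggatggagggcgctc
Cry1: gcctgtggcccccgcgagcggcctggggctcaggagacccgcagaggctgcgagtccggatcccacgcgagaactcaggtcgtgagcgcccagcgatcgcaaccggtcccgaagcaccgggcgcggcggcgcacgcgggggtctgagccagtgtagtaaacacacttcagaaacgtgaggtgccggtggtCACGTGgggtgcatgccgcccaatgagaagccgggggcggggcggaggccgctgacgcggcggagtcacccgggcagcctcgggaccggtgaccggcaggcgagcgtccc
The Cry1 window is chr10:85185005-85185304 on the minus strand. CACGTG, a palindrome and so the same on both strands, was found in 2349 of 32851 promoters of that table (7.15%). Of the 34 genes that rose, 26 had a promoter in the table and 4 of these (15.4%) held the letters. Of the 58 that fell, 43 had a promoter and 5 (11.6%) held them. A gene counted if any of its promoters held the letters, so these shares per gene are not on the base of the 7.15%. Holding the letters did not go with a rise in every gene described. Ciart, Tef and Bhlhe41, which did not pass the test, and Ankrd65, which fell, held them too. The match describes letters only.

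**Figure D1:**
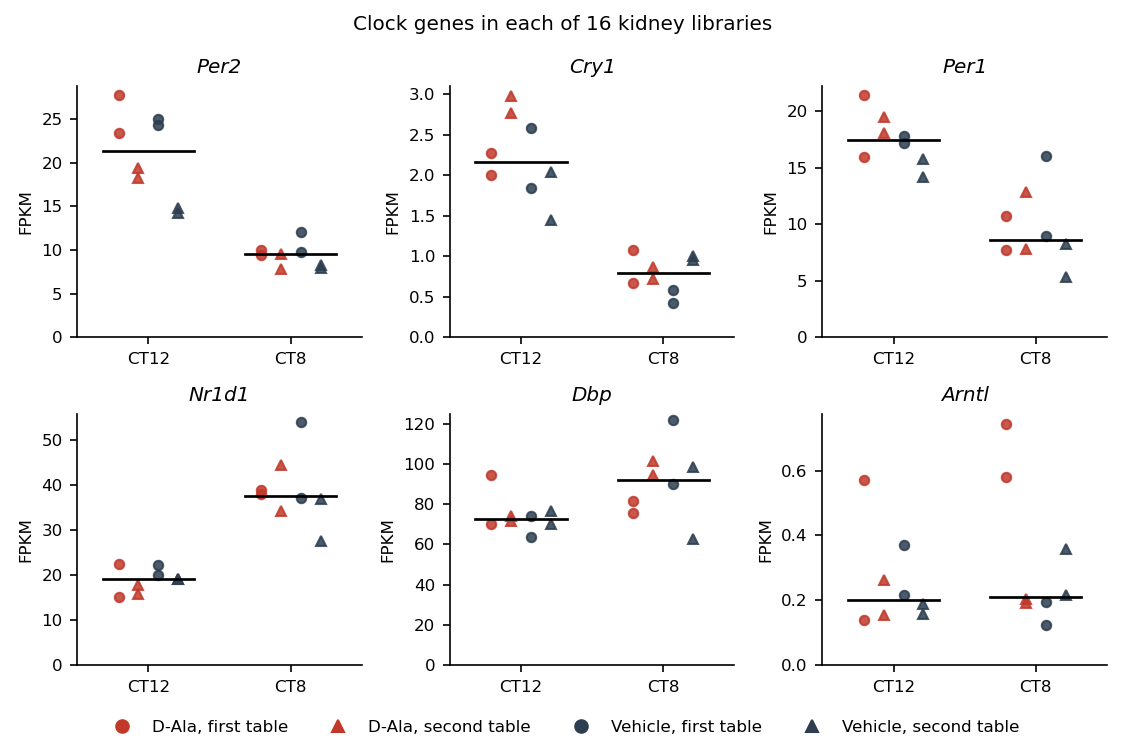
FPKM of 6 clock genes in each of the 16 libraries, CT12 left and CT8 right. Points are libraries, red for D-Ala and dark blue for Vehicle, circles for the first table and triangles for the second, and the horizontal line is the median of 8. Per2 and Cry1 lie higher at CT12 with no overlap, Nr1d1 lies lower with no overlap, Per1 overlaps in 1 CT8 library, and the ranges of Dbp and Arntl overlap.

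In the second loop, the repressor gene Nr1d1 fell. Nr1d1, at chr11:98767932-98775333 on the minus strand, encodes REV-ERBalpha, and its values were 15.2 to 22.4 FPKM at CT12 (median 19.2) against 27.7 to 54 FPKM at CT8 (median 37.7). The highest CT12 library lay below the lowest CT8 library, and the gene fell by 0.99 on the log2 scale (SE 0.11, limma adjusted p = 0.000579). Nr1d2 and Rora, an activator at the same elements, did not pass the test, with log2 changes of -0.18 and -0.09.

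Of the activators of the clock, Arntl had 0.138 to 0.572 FPKM at CT12 and 0.124 to 0.745 FPKM at CT8, values so low that a difference would be hard to detect at this depth. Its partners Clock and Npas2 had log2 changes of -0.14 and -0.19, and none of the 3 passed. Npas2 was about as low as Arntl, so the same limit holds for it. Its values were 0.105 to 0.262 FPKM at CT12 and 0.0976 to 0.786 FPKM at CT8. Among the D-box factors, Dbp had 63.6 to 94.6 FPKM at CT12 (median 72.9) and 62.9 to 122 FPKM at CT8 (median 92.2). The ranges overlapped, and the log2 change of -0.27 was not past the threshold (limma adjusted p = 0.265). Tef, Hlf and the D-box repressor Nfil3 had log2 changes of 0.11, 0.11 and 0.47, and the repressors Ciart, Bhlhe40 and Bhlhe41 of 0.15, -0.12 and -0.14, all short of the threshold. Of 18 core clock genes, 3 rose, 1 fell and 14 did not pass, beside 0.617% of all genes that passed, and these counts were the same under all 4 scalings named above. Without the 6 libraries high in inner medulla markers, Per2 kept its call, while Cry1 (adjusted p = 0.124), Per1 (0.208) and Nr1d1 (0.107) lost theirs, and without the 2 high in adipose markers Per1 alone of these lost it (0.101). The median of the 18 was 0.02, against -0.06 over all genes tested.

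Genes often named as outputs of the clock gave no call on the deposited FPKM scale. Of 19 tested, 0 passed the adjusted threshold, while 9 were higher and 4 lower at an unadjusted p under 0.05, against 3.4% higher and 13.2% lower over all genes. Their median log2 change was 0.14. Quantile normalization and median centring each gave 1 higher call among the 19. Leaving mitochondrial genes out of the total gave 1 lower call. Wee1, a kinase that holds cells before mitosis, had 3.61 to 5.12 FPKM at CT12 (median 4.39) and 2.16 to 4.86 FPKM at CT8 (median 2.79), with a limma adjusted p of 0.0651. Klf10, a repressor with a zinc finger, had a log2 change of -0.41 (adjusted p = 0.0738). The 11 clock kinases and ubiquitin ligases counted gave 0 calls as well, with the deubiquitinase gene Usp2 at 0.40 (adjusted p = 0.105) and Btrc, a subunit of a ubiquitin ligase that targets PER proteins, at -0.13 (adjusted p = 0.301).

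Outside the clock, 3 neighbouring genes of the Nat8 family rose. The family encodes acetyltransferase-like proteins, and Nat8 itself is known for the last step of mercapturic acid formation, by which the kidney readies conjugated toxins for excretion. Nat8f5, at chr6:85817218-85820972 on the minus strand, had 34 to 105 FPKM at CT12 (median 66.6) and 18.6 to 56.7 FPKM at CT8 (median 34.5). The ranges overlapped because the second table was higher than the first at both times, while within each pair of treatment and table CT12 was higher, by 0.80 to 1.29 on the log2 scale. Its overall change was 1.06 ± 0.16 (SE, limma adjusted p = 0.0109), which with Per2 was the largest of the 34. Nat8f6, at chr6:85808024-85820954 on the same strand, had 43.6 to 108 FPKM at CT12 (median 90.9) and 33.5 to 79.8 FPKM at CT8 (median 44.3), a change of 0.69 ± 0.13 (SE, adjusted p = 0.029). Nat8, at chr6:85830388-85832082, had 171 to 472 FPKM at CT12 (median 357) and 137 to 352 FPKM at CT8 (median 209), a change of 0.60 ± 0.12 (SE, adjusted p = 0.0316). Without 1 library, Nat8f5 kept its call in all 16 runs, Nat8f6 in 8 and Nat8 in 9. The highest adjusted p was 0.072 for Nat8f6 without D-Ala CT12 replicate 3 and 0.0754 for Nat8 without D-Ala CT8 replicate 2.

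**Figure D2:**
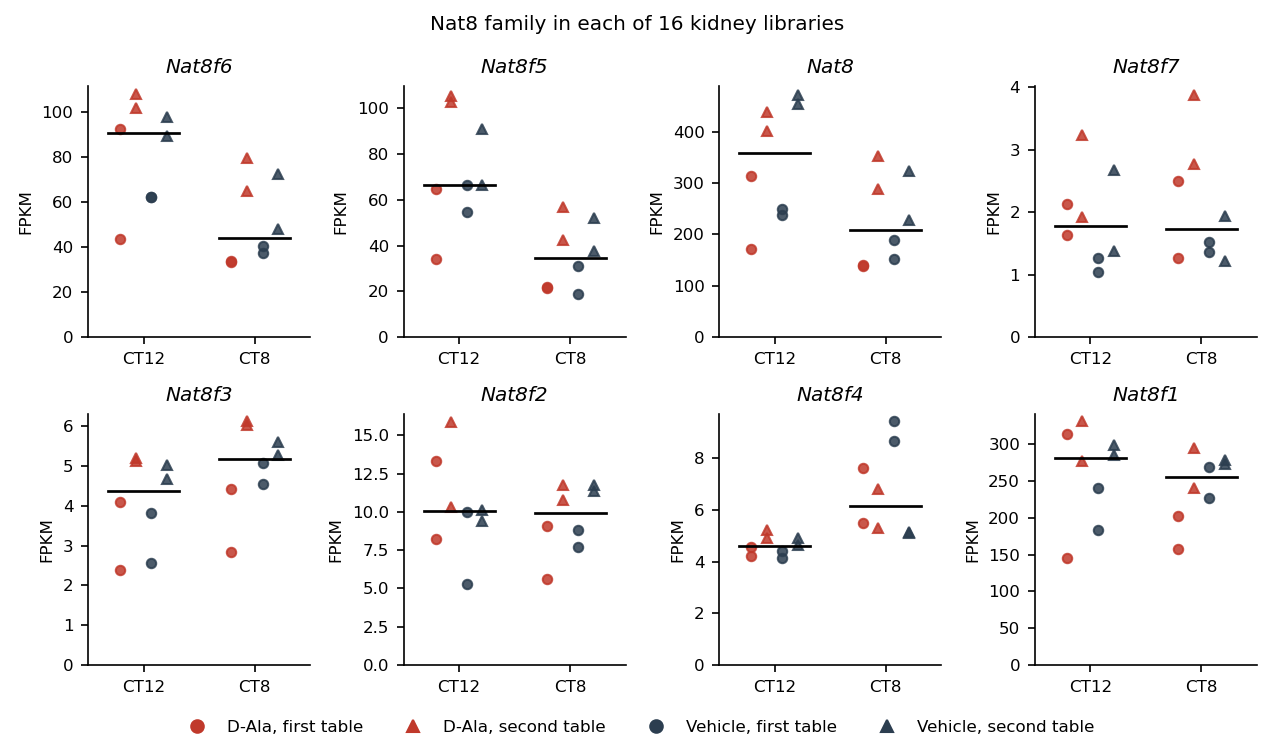
FPKM of 8 genes of the Nat8 family in each of the 16 libraries, CT12 left and CT8 right. Points are libraries, red for D-Ala and dark blue for Vehicle, circles for the first table and triangles for the second, and the line is the median. Nat8f6, Nat8f5 and Nat8 are higher at CT12 within each table, while the other 5 genes did not pass the test.

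The other 5 family members tested did not pass. Nat8f1, the most abundant of them, had 145 to 332 FPKM at CT12 (median 281) and 158 to 295 FPKM at CT8 (median 255), with a log2 change of 0.07 (limma adjusted p = 0.829). Nat8f4 had a change of -0.42 (adjusted p = 0.0963), and Nat8f2, Nat8f3 and Nat8f7 of 0.07, -0.24 and -0.06. Whether the change differed between family members was not tested. The genes resemble each other, with 72.1% to 99.5% identical bases over 28 pairs of their longest coding transcripts. Nat8f6 shared 97.9% with Nat8f3 and 97.6% with Nat8f7, so the split of fragments between these is uncertain. Nat8f5 shared 80.3% with Nat8 and 78.4% with Nat8f6.

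Nat8f5 and Nat8f6 also overlap in the genome. By GENCODE M21, 135 of the 986 exon bases of Nat8f5 lie in exons of Nat8f6, so that their counts are not separate measurements, whereas Nat8 shares 0 exon bases with the other 7. The RefSeq promoter window of Nat8f5, chr6:85820923-85821222 on the minus strand of GRCm38.p6, is shown because it carries this overlap. Capitals mark its last 32 bases, which also belong to the first exon of the longer Nat8f6 transcript.
Nat8f5: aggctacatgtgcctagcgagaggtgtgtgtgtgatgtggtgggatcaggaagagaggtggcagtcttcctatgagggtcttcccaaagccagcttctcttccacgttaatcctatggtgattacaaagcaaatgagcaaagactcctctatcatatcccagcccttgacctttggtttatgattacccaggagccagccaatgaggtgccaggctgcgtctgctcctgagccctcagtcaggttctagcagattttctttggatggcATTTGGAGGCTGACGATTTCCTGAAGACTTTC
No CACGTG was found in these letters. The CRE core letters TGACG, part of the cAMP response element, were found 29 bases after the start site, inside the capitals. TGACG on either strand was found in 20.8% of the 32851 promoters. Of genes with a promoter, 38.5% of the 26 that rose and 37.2% of the 43 that fell held it. A gene counted if any of its promoters held the letters, so these shares per gene are not on the base of the 20.8%.

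Among stress and hormone response genes, single members rose. Hspa8, the constitutively expressed heat shock cognate chaperone, had 404 to 628 FPKM at CT12 (median 484) and 277 to 470.0 FPKM at CT8 (median 305). Its ranges overlapped, the log2 change was 0.59 ± 0.09 (SE, limma adjusted p = 0.0136), and the call held in all 16 runs without 1 library. It was the 1 call among 22 heat shock chaperones, whose median change was 0.05. Fkbp5, a co-chaperone that dampens the glucocorticoid receptor, had 9.49 to 15.2 FPKM at CT12 (median 12.6) and 5.78 to 11.9 FPKM at CT8 (median 8.1). It rose by 0.52 ± 0.11 (SE, adjusted p = 0.0403), with a call in 4 of 16 runs, an adjusted p of up to 0.0963 without Vehicle CT8 replicate 2 and none with TPM (0.053).

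Of 14 glucocorticoid response genes tested, 2 rose (Per1 and Fkbp5), 0 fell and 12 did not pass, beside 0.228% of all genes that rose and 0.389% that fell. The median of the 14 was 0.35, with a range of -0.52 to 0.84, against -0.06 over all genes. At an unadjusted limma p under 0.05, 6 were higher and 3 lower, against 3.4% higher and 13.2% lower over all genes. Tsc22d3, the glucocorticoid-induced leucine zipper gene, had 12.7 to 26.4 FPKM at CT12 (median 16.1) and 4.71 to 16.6 FPKM at CT8 (median 9.27), which missed the threshold (limma adjusted p = 0.0586) and passed it with quantile normalization (0.0391). Dusp1, a phosphatase that shuts off MAP kinases, had a change of 0.56 (adjusted p = 0.186). The receptor gene itself, Nr3c1, had a change of -0.25 (adjusted p = 0.119). The Fkbp5 promoter window at chr17:28486100-28486399 on the minus strand of GRCm38.p6 is shown because it too holds CACGTG, in capitals, 169 bases before the RefSeq start site.
Fkbp5: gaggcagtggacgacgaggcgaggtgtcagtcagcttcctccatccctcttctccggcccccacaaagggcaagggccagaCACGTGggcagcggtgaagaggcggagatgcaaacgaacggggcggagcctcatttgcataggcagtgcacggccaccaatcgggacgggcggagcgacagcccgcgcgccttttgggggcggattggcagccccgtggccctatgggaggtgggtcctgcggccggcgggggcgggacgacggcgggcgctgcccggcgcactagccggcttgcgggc
The glucocorticoid response element, searched on both strands as the palindromic consensus of paired half-sites, was found in 0.475% of all promoters and not in this window.

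Further genes that rose encode secreted proteins, receptors and regulators. Col27a1, a fibrillar collagen gene, had 43.6 to 53.5 FPKM at CT12 (median 47.1) and 20.4 to 40.7 FPKM at CT8 (median 32.6), with no overlap (change 0.60 ± 0.11 SE, limma adjusted p = 0.0259, 10 of 16 runs). Klf2, a transcription factor known for its response to flow in endothelium, had 9.51 to 20.9 FPKM at CT12 (median 16.2) and 5.77 to 11.5 FPKM at CT8 (median 8.53), a change of 0.66 (adjusted p = 0.023, 13 of 16 runs). Acvr2b, an activin receptor, had 3.07 to 5.33 FPKM at CT12 (median 3.66) and 1.88 to 3.21 FPKM at CT8 (median 2.24), a change of 0.54 (adjusted p = 0.0129, all 16 runs). Its ranges overlapped slightly, as did those of Lrg1, a secreted leucine-rich glycoprotein gene, with 3.11 to 6.69 FPKM at CT12 (median 4.13) and 1.96 to 3.72 FPKM at CT8 (median 2.55) and a change of 0.51 (adjusted p = 0.0206, all 16 runs). Ctgf, a matricellular growth factor gene, rose by 0.67 (adjusted p = 0.044) with large differences between pairs of treatment and table, 0.30 to 1.18, and with a call in 5 of 16 runs. It was the 1 call among 13 actin and SRF targets and was lost with quantile normalization (0.0654) and median centring (0.0576). Grasp, a receptor scaffold gene, and Tnnc1, troponin C of slow muscle, rose by 0.51 and 0.50 (adjusted p = 0.0465 and 0.0344) with calls in 3 and 4 of 16 runs.

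**Figure D3:**
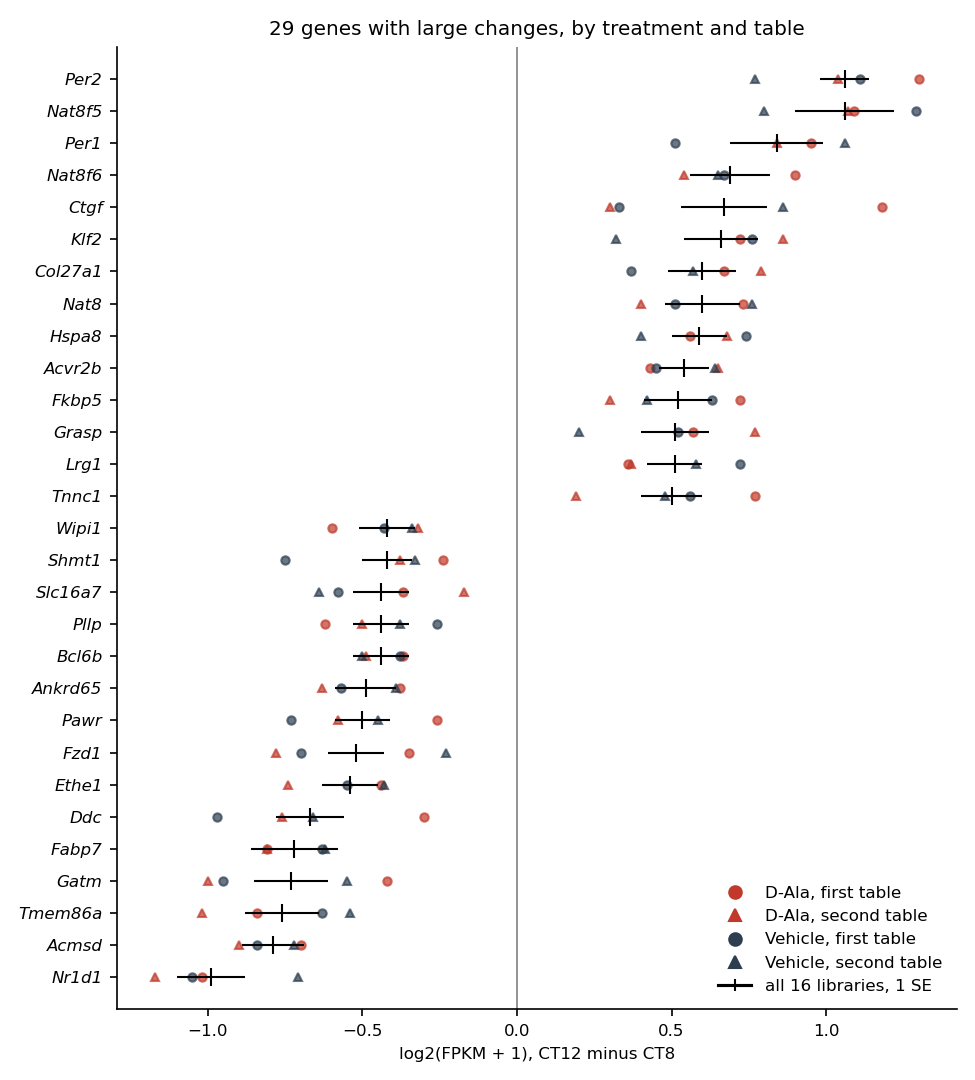
Log2 change of FPKM + 1, CT12 minus CT8, for 14 higher and 15 lower genes among those with the largest changes. Coloured points are the differences within each pair of treatment and table (red D-Ala, dark blue Vehicle, circles first table, triangles second table), and the black mark is the estimate over all 16 libraries with a bar of 1 SE. All points of a gene lie on 1 side of 0, which the rule that chose the genes required.

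Besides Nr1d1, 5 of the 15 lower genes described encode enzymes of amino acid or sulfide metabolism, a grouping made after their values were seen. Acmsd, which diverts a tryptophan breakdown product away from NAD synthesis, had 9.58 to 16.3 FPKM at CT12 (median 13.9) and 17.9 to 30.8 FPKM at CT8 (median 24.2). All CT12 libraries lay below all CT8 libraries, and the log2 change was -0.79 ± 0.10 (SE, limma adjusted p = 0.00257). Gatm, the enzyme of the first step of creatine synthesis, had 61.7 to 94.4 FPKM at CT12 (median 72.5) and 93 to 172 FPKM at CT8 (median 127). Its ranges overlapped by a little over 1 FPKM, and it fell by 0.73 (SE 0.12, adjusted p = 0.0162). Ddc, the decarboxylase that makes dopamine in the proximal tubule, had 3.03 to 7.66 FPKM at CT12 (median 5.78) and 6.55 to 12.3 FPKM at CT8 (median 10.1), a fall of 0.67 (SE 0.11, adjusted p = 0.0154). Ethe1, a mitochondrial enzyme that oxidizes sulfide, had 26.8 to 51.9 FPKM at CT12 (median 41.9) and 37.2 to 83.9 FPKM at CT8 (median 61.6), a fall of 0.54 (SE 0.09, adjusted p = 0.0137). These 4 genes kept their call in all 16 runs without 1 library. Shmt1, which interconverts serine and glycine, fell by 0.42 (SE 0.08, adjusted p = 0.0361) but kept its call in 4 of 16 runs. Under median centring, Acmsd kept its call (adjusted p = 0.0287), while Gatm (0.0797), Ddc (0.0866), Ethe1 (0.0561) and Shmt1 (0.192) lost it.

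The other 9 have varied roles. Tmem86a, a lysoplasmalogen hydrolase, had 12.8 to 27.2 FPKM at CT12 (median 16.8) and 21.3 to 45.7 FPKM at CT8 (median 28.5), a fall of 0.76 (SE 0.12, limma adjusted p = 0.0129) that held in all 16 runs. Fabp7, a fatty acid binding protein gene, had 1.07 to 3.93 FPKM at CT12 (median 2.15) and 3.09 to 7.58 FPKM at CT8 (median 3.94), a fall of 0.72 (adjusted p = 0.0326, 9 of 16 runs). The ranges of both overlapped. The transporter Slc16a7, which carries lactate and pyruvate, fell by 0.44 (adjusted p = 0.0464, 3 of 16 runs). Fzd1, a Wnt receptor, fell by 0.52 (adjusted p = 0.0189, 15 of 16 runs), and Pawr, a regulator of apoptosis, by 0.50 (adjusted p = 0.0244, 11 of 16 runs). The membrane protein gene Pllp and the transcriptional repressor Bcl6b each fell by 0.44 (adjusted p = 0.0329 and 0.0326), Ankrd65 by 0.49 (0.0464) and the autophagy gene Wipi1 by 0.42 (0.0446), with calls in 5, 6, 4 and 2 of 16 runs. Of the 15 lower genes described, 7 kept their call with quantile normalization and 4 with median centring (Nr1d1, Acmsd, Tmem86a and Wipi1). Of the 14 higher genes described 12 kept it with either, all but Ctgf and Tnnc1. With TPM Fkbp5 and Grasp lost it, as did Grasp with mitochondrial genes left out of the total.

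Most pathway lists had no call on the deposited FPKM scale. Of 30 lists, 25 had none, and the 5 with a call were the core clock, the heat shock chaperones, the actin and SRF targets, the glucocorticoid response and the CREB and gluconeogenic regulators. In the last, 1 of 14 genes fell, Ppargc1a, the coactivator of mitochondrial biogenesis (log2 change -0.30, limma adjusted p = 0.0345), which lost the call with quantile normalization (0.244) and median centring (0.235) and in 10 of the 16 runs without 1 library. Gluconeogenesis had 0 calls among 17 enzymes, with a median of -0.02, and 1 higher call with mitochondrial genes left out of the total. G6pc, which releases free glucose, had 75.3 to 130.2 FPKM at CT12 (median 113) and 59.3 to 112 FPKM at CT8 (median 73.8; adjusted p = 0.0559). Insulin and fasting signalling had 0 of 12, with Igfbp1, a binding protein of insulin-like growth factors, at 1.18 to 5.33 FPKM at CT12 (median 2.42) and 2.05 to 7.74 FPKM at CT8 (median 5.63; adjusted p = 0.0546). Igfbp1 passed with TPM (0.0406). The 8 genes of D-amino acid handling gave 0 calls and a median of -0.10, all 8 below 0 except under quantile normalization and median centring, where 2 and 3 lay above. Slc6a19, a neutral amino acid transporter of the proximal tubule, was the nearest at -0.69 (adjusted p = 0.0952). Sodium and water transport had 0 of 24 (median -0.03), transport of phosphate, glucose and organic ions 0 of 19 (median -0.08), fatty acid oxidation 0 of 18 (median -0.10), cytosolic ribosomal proteins 0 of 18 (median 0.06) and the proteasome 0 of 24 (median 0.01).

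Markers of kidney cell types gave 0 calls in all 16 lists. At an unadjusted limma p under 0.05, 4 of 7 thick ascending limb, 3 of 6 distal convoluted tubule and 3 of 7 fibroblast markers were lower and 0 higher. Of the principal cell markers 3 of 7 were higher and 0 lower. Over all genes 3.4% were higher and 13.2% lower at that threshold. The other lists tested had at most 2 in either direction. The median of 12 proximal tubule markers was -0.00. All 7 thick ascending limb markers were below 0 under every scaling named above, with a median of -0.27, and Umod, the uromodulin gene, had 153 to 466 FPKM at CT12 (median 309) and 225 to 609 FPKM at CT8 (median 367; limma adjusted p = 0.208). Of 7 principal cell markers, 6 were above 0 with a median of 0.20, and the water channel gene Aqp2 had 184 to 588 FPKM at CT12 and 96.1 to 698 FPKM at CT8. Of 8 inner medulla markers, 7 were below 0, with a median of -0.26. The 6 red blood cell markers and the 5 adipose markers tested were all below 0, with medians of -0.20 and -0.35. Over all genes tested the median was -0.06. Summed FPKM of the adipose markers had a median of 11.6 at CT12 and 12.9 at CT8. The 6 podocyte markers counted had a median of -0.07, and Podxl, the podocalyxin gene, had 22.6 to 30.9 FPKM at CT12 (median 26.3) and 21.1 to 36.9 FPKM at CT8 (median 24.1; adjusted p = 0.822). None of 8 adrenal markers was high enough to be tested, with 3 at 0 in all 16 libraries and none above 1.06 FPKM. The part of these marker levels in the calls was not tested beyond leaving out the libraries named above.

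The step was set beside the rest of the day. Per2 averaged 6.08 ± 2.92, 3.51 ± 1.46, 9.36 ± 1.41, 20.9 ± 4.98, 26.6 ± 5.13 and 12.5 ± 2.94 FPKM at CT0, CT4, CT8, CT12, CT16 and CT20 (SD, n = 8 each). Over the same 6 times Nr1d1 averaged 10.8 ± 4.78, 29.8 ± 8.48, 39 ± 7.69, 19 ± 2.67, 8.04 ± 2.42 and 4.1 ± 2.49 FPKM. CT12 thus lay on the rising side of Per2 and on the falling side of Nr1d1. Per1, at 17.5 ± 2.26 FPKM, had its highest mean at CT12, whereas Cry1 had it at CT20, with 4.38 ± 1.13 FPKM. Nat8f5 had its highest mean at CT16, 93.5 ± 30.8 FPKM, and Nat8f6 and Nat8 at CT12. Acmsd averaged 27.7, 27.9, 24.8, 13.8, 14.6 and 23.2 FPKM from CT0 to CT20, lowest at CT12. Of the 34 genes that rose, 16 had their highest mean at CT12, 15 at CT16 and 3 at CT20. Of the 58 that fell, 32 had their lowest mean at CT12 and 19 at CT16, and 26 had their highest at CT8. Choosing the genes by their difference between CT12 and CT8 partly fixed these counts. The shares over all genes are not given, so the counts say nothing about phase in general.

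**Figure D4:**
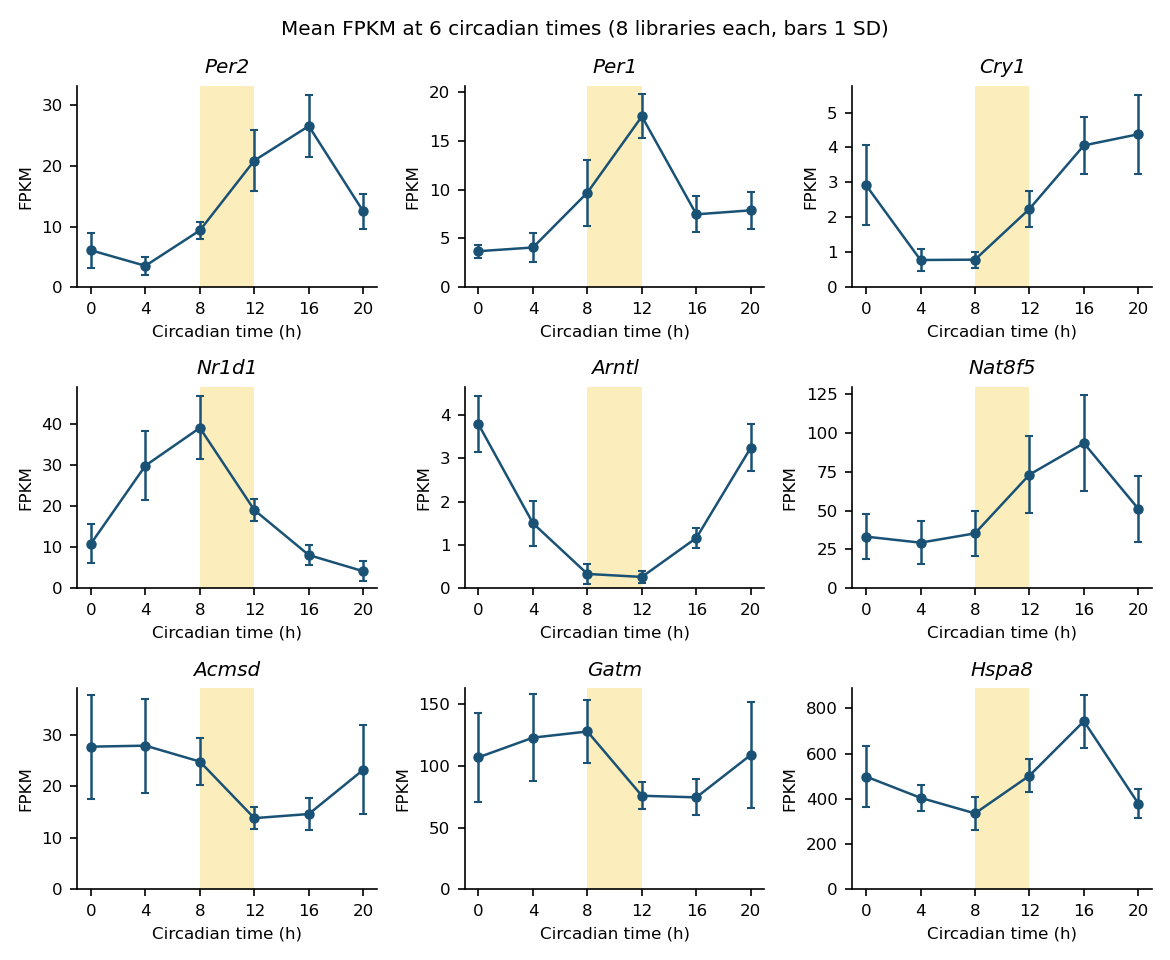
Mean FPKM at 6 circadian times for 9 genes, with bars of 1 SD over 8 libraries of both treatments and both tables. The shaded band spans CT8 to CT12. Within it Per2, Per1, Cry1, Nat8f5 and Hspa8 go up and Nr1d1, Acmsd and Gatm go down, while Arntl stays below 1 FPKM at both times.

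The 6 steps of the day differed in their number of calls. In the same fit on the 16 libraries of each step, CT4 against CT0 had 583 genes (3.91%), CT8 against CT4 71 (0.476%), CT16 against CT12 418 (2.8%), CT20 against CT16 53 (0.355%) and CT0 against CT20 3 (0.0201%), beside the 92 (0.617%) here. Neighbouring steps share 8 libraries.

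The step 12 h away, CT0 against CT20, shares no library with CT12 against CT8, and Per2 and Per1, both lower at CT0, were among its 3 calls. Per2 had a limma adjusted p of 0.0323 there, and Per1 changed by -0.90 (0.00403). The 34 genes that rose at CT12 had a median of -0.31 at CT0 minus CT20, and 30 of them were of the opposite sign there. Of the 58 that fell, 34 were of the opposite sign with a median of 0.03, against 59% of all genes of opposite sign and a median of 0.02 over all genes. Hspa8 was among the 4 rising genes that did not turn, with 0.37 at CT0 minus CT20.

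The difference between both steps was tested as a contrast over 32 libraries. It passed for 57 genes (0.382%), 43 in the positive direction (0.288%) and 14 in the negative (0.0938%), of which 28 were among the 92 genes, 20 of the 34 and 8 of the 58. Leaving out 1 library gave between 32 genes, 29 positive and 3 negative, without Vehicle CT0 replicate 1, and 114 genes, 65 positive and 49 negative, without D-Ala CT20 replicate 4. These counts reuse the CT12 and CT8 values and are no second test of them. The contrast was 2.06 for Per2 (limma adjusted p = 3.72e-08), 1.74 for Per1 (8.78e-06) and -2.22 for Nr1d1 (0.000899). It was 1.68 for Nat8f5 (0.000984), 1.21 for Col27a1 (0.000375) and -0.76 for Ethe1 (0.00496). For Hspa8 (0.22, adjusted p = 0.543), Klf2 (0.67, 0.136), Gatm (-0.73, 0.224) and Acmsd (-1.04, 0.0609) it did not pass.

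**Figure D5:**
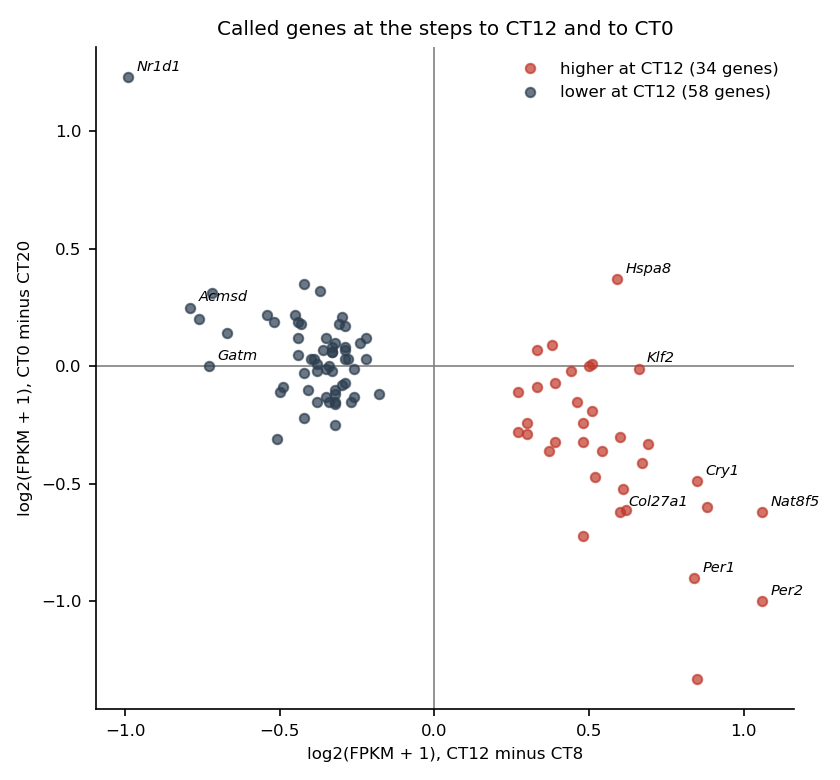
Log2 change of FPKM + 1 at CT12 minus CT8 (horizontal) and at CT0 minus CT20 (vertical) for the 92 called genes, red for the 34 higher and dark blue for the 58 lower at CT12. The red points lie mostly below the horizontal line at 0, with a median of -0.31, and the dark blue points around it, with a median of 0.03 and Nr1d1 far above.

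D-Ala and Vehicle libraries were compared over the same step. The treatment by step interaction passed for 0 genes (0%), with 596 genes (3.99%) at an unadjusted p under 0.05 and a smallest limma adjusted p of 0.861. Per2 changed by 1.17 in D-Ala and by 0.94 in Vehicle kidneys. For Nr1d1 the change was -1.10 in D-Ala and -0.88 in Vehicle kidneys, and for Acmsd -0.80 in D-Ala and -0.78 in Vehicle kidneys. With 4 libraries a group no gene passed within 1 treatment. In D-Ala libraries the smallest adjusted p was 0.0925 and 2166 genes had an unadjusted p under 0.05, and in Vehicle libraries these were 0.0869 and 940. The libraries high in inner medulla or adipose markers were all D-Ala except Vehicle CT12 replicate 1. Their part in these numbers was not tested. The 5 genes with the smallest interaction p were all predicted models (Gm26910, Gm22009, Gm6542, Gm17661 and Gm12326). All 92 genes had 1 sign in both treatments, as did 59.5% of all genes tested, and the 92 were chosen on the pooled difference.

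The 2 tables were compared in the same way, and the table by step interaction passed for 0 genes (0%), with 733 (4.91%) at an unadjusted p under 0.05 and a smallest limma adjusted p of 0.225. The 5 with the smallest p were Gm2260, Gm24888, Mad2l2, Rpl31-ps9 and Klf1. Within pairs of treatment and table, 34 of 34 and 57 of 58 genes had 1 sign in all 4 pairs, against 21.5% of all genes. CT12 and CT8 ranges did not overlap for 6 of the 34 and 7 of the 58, against 0.141% of all genes. The 34 and the 58 were chosen on the pooled difference of the same libraries, so neither comparison is a separate test of them.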

How the data were processed

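Per the labels' protocols, kidney RNA was column-purified and its libraries were prepared with SMARTER chemistry. The authors deposited FPKM values for 49585 genes, 1 column per library. Per the submitters' processing notes the build is GRCm38 (mm10). Aligner, counter, filters and strandedness: not given in the sources used here, so overlapping and antisense genes are uncertain. Of the gene identifiers, 49326 were found in GENCODE M21 and 45128 had equal coordinates. With its exon lengths, 97% to 97.6% of values under 20 fragments in single-transcript genes came out whole (tolerance 0.05), which gave the depths. The number of unused sample columns was 0. Replicates were numbered in accession order, so numbers pair nothing.

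Tested genes reached 1 FPKM in 4 or more of the 48 libraries. Their log2(FPKM + 1) values entered limma 3.58.1 (trended empirical Bayes, R 4.3.3). No library pair of a group agreed within sampling noise (lowest chi-square per gene 5.7). Depth limits low genes, and p-values measure the spread between these libraries. The members, gene lists and tests were chosen with earlier results of these data known. The genes described were the 15 higher and the 15 lower called genes with the largest log2 change, 1 sign in all 4 pairs of treatment and table and a mean of at least 2 FPKM, leaving out predicted models, small RNAs and pseudogenes. Results of 3 genes are not reported here. They stayed in the fits and in counts over all genes, and were left out of the lists, so that 14 higher genes are described. Also described were every core clock gene, up to 4 members of each other pathway list with the smallest p, up to 3 members of each marker list and the 5 genes with the smallest p of each interaction. Other genes named were chosen after their values were seen. They are the Nat8 family members short of the threshold, Gm4956 and the genes named only in the closing section.

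The alternatives were a pseudocount of 0.1, no filter, a filter at 5 FPKM, TPM, quantile normalization, median centring, totals without mitochondrial genes, all 48 libraries in the fit, no table term, 4 blocks of treatment by table, each table or treatment alone, robust moderation and leaving out each library. Leaving out libraries high in inner medulla or adipose markers was chosen after seeing the data. The limma script was tested on simulated data. Promoter windows come from RefSeq (GRCm38.p6), where 38 of 44 genes looked up had an entry, and transcripts were aligned with Biopython 1.88.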

Additional observations from a re-analysis of the deposited data

Results flagged for a closer look

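In 11 of 268 groups of 8 libraries checked, the highest or lowest library stood apart by more than Dixon's 95% critical value of 0.526 of the range. Chance flags about 5% of such groups. Among genes that rose, Lrg1 was highest at CT12 in Vehicle CT12 replicate 3, at 6.69 FPKM with the next library at 4.77. Map3k6, a stress-activated kinase gene, was highest at CT8 in D-Ala CT8 replicate 1, at 1.82 FPKM against 1.21. Of genes that fell, Ppargc1a was lowest at CT12 in D-Ala CT12 replicate 2, at 4.34 FPKM against 5.4. Fabp7 was highest at CT8 in D-Ala CT8 replicate 3, at 7.58 FPKM against 5.16, and Wipi1 was lowest at CT8 in Vehicle CT8 replicate 1, at 6.75 FPKM against 9.13.

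The other flags lie in genes short of the threshold. D-Ala CT12 replicate 1 was highest of the CT12 libraries for Dbp, at 94.6 FPKM against 76.8, and for Ciart, at 21.6 FPKM against 12.2. Vehicle CT8 replicate 1 was highest of the CT8 libraries for Ciart, at 23.4 FPKM against 12.5, and lowest for Rora, at 1.61 FPKM against 2.23. Parp1 was highest at CT12 in D-Ala CT12 replicate 4, at 8.52 FPKM against 6.43, and Ier3 was highest at CT8 in D-Ala CT8 replicate 3, at 50.9 FPKM against 28.5. The cause of these values was not tested.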

How the results depend on the processing

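The 92 calls (34 higher and 58 lower) became 81 with a pseudocount of 0.1, 94 with the stricter filter, 83 with 4 blocks and 89 with robust moderation. No filter gave 35 (11 higher, 24 lower), TPM 156 (130 lower), totals without mitochondrial genes 167 (132 lower), median centring 53 (12 lower), quantile normalization 67 (23 lower), all 48 libraries 34 (20 and 14), no table term 9 (5 and 4), 3 came from each table's libraries alone (1 and 2 in the first, 2 and 1 in the second), and 0 from D-Ala or Vehicle alone. Without the inner medulla libraries there were 6 (3 and 3), and without the adipose libraries 46 (12 and 34). Fits on fewer libraries have fewer degrees of freedom, and other causes were not tested.

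Leaving out 1 library gave 28 to 176 calls, 11 to 49 higher and 17 to 134 lower. The total left the range of 1.5 times without Vehicle CT12 replicates 1 (176), 2 (43), 3 (38) and 4 (48), D-Ala CT12 replicate 3 (28), Vehicle CT8 replicates 1 (151) and 2 (47) and D-Ala CT8 replicates 2 (31) and 4 (36). Of the 92, 26 were called in all 16 runs, as were 11 of the 29 genes described, and no sign of them turned. No paired analysis was possible because the labels give no replicate numbers shared between groups.

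The contrast of the steps (57, of which 43 positive and 14 negative) became 35 with no filter (6 negative) and had 5 negative with quantile normalization. Without 1 library it gave 32 (Vehicle CT0 replicate 1) to 114 (D-Ala CT20 replicate 4), 29 to 65 positive and 3 to 49 negative. CT0 against CT20 had 1 higher gene with no filter and 2 to 5 genes without 1 library. The treatment interaction gave 2 with no filter, and without 1 library each interaction gave 0 to 1 genes.

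Signs turned for uncalled genes. Arntl became 0.00 with median centring, 0.01 in Vehicle alone and 0.03 without the adipose libraries. Cry2 became -0.06 in the first table and -0.03 in D-Ala alone. Hlf became -0.06 in Vehicle alone, -0.05 without the medulla libraries and -0.03 without the adipose libraries, where Ciart became -0.06 (-0.01 in Vehicle alone). Cirbp became 0.03 in the second table. The mitochondrial share difference was -1.98 points in the second table, -0.945 in Vehicle alone, and -0.281 to 1.84 without 1 library, with -0.0148 without D-Ala CT12 replicate 2.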

Other observations

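Some called genes outside the rule for named genes were picked after their values were seen. Gabarapl1, an ATG8-family gene of autophagosomes, had 158 to 285 FPKM at CT12 (median 223) and 199 to 393 FPKM at CT8 (median 287), and fell by 0.36 on the log2 scale (limma adjusted p = 0.00257, all 16 runs without 1 library). Its ranges overlapped, and it kept its call under median centring (adjusted p = 0.0438). Amt, a subunit of the glycine cleavage system, had 14.5 to 23.3 FPKM at CT12 (median 18.6) and 17.7 to 27.7 FPKM at CT8 (median 23.4), a fall of 0.29 (adjusted p = 0.0154). Lgr4, a receptor of R-spondins, had 12.5 to 14.6 FPKM at CT12 (median 13.6) and 14.6 to 19 FPKM at CT8 (median 17.2), a fall of 0.32 (adjusted p = 0.0129), and Slc40a1, the iron exporter ferroportin, fell by 0.42 (adjusted p = 0.0239). Amt and Lgr4 lost their calls under median centring (0.169 and 0.163), and Slc40a1 kept it (0.0432).

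Among genes that rose, the pseudogene Gm4956, at chr1:21285246-21298312 on the minus strand, had 8.69 to 14 FPKM at CT12 (median 10.6) and 5.03 to 8.23 FPKM at CT8 (median 6.5), with no overlap and a change of 0.62 (limma adjusted p = 0.000487). Its contrast of the 2 steps was 1.23 (adjusted p = 4.51e-08), and whether reads of a similar gene were counted there was not tested. Map3k6 had 1.2 to 2.7 FPKM at CT12 (median 2.29) and 0.729 to 1.82 FPKM at CT8 (median 1.01), a change of 0.61 (adjusted p = 0.0129). Smaller changes were found for Slc29a1, a nucleoside transporter (0.38, adjusted p = 0.0259), Slc9a3r2, a scaffold of the sodium-proton exchanger (0.33, 0.0316), and Rapgef3, a cAMP-activated exchange factor (0.27, 0.0498), the last of which was called in 1 of 16 runs without 1 library.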
